A study of Mus musculus with 13 samples.

Results

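Insulin-like growth factors (IGFs), their receptors and the proteins that bind them were examined in the cerebral meninges of newborn mice. The 10 genes were chosen by name as members of the family, Igf1, Igf2, Igf1r, Igf2r, Igfbp2, Igfbp3, Igfbp4, Igfbp5, Igfbp6 and Igfbp7, and are 10 of 19938 genes tested. Each is represented by a single Affymetrix probe set. The study compared 4 mutants, which lacked both copies of Pdgfc and carried a GFP knock-in in place of 1 copy of Pdgfra (Pdgfc-/-; Pdgfra GFP/+), with 9 littermates on a C57BL6 background. That knock-in abolishes the Pdgfra copy it sits in and marks the nuclei of cells in which the gene is active. The control group pools littermates that were wild type, heterozygous or null for Pdgfc, and carriers of Pdgfra GFP/+ with at least 1 intact Pdgfc copy, and it is not known which control had which genotype. All pups came from 1 litter, with 1 array per mouse.

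IGF1 and IGF2 are secreted growth factors that act through the tyrosine kinase IGF1R, while IGF2R clears IGF2 from the cell surface. The binding proteins carry the ligands in tissue fluid and can both restrain and prolong their action. Igf2 is an imprinted gene of fetal growth, and meninges and choroid plexus are known sources of IGF2 and IGFBP2 in the brain.

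In mutant meninges Igf2 and Igfbp2 fell, to 1.73-fold and 1.85-fold lower levels, while Igfbp3 rose 2.35-fold and Igfbp6 1.43-fold. Igf1, Igf1r, Igfbp4, Igfbp5 and Igfbp7 did not pass the test, and Igf2r lay just outside the threshold. Of the 10 members 2 thus rose and 2 fell, at an adjusted p under 0.05 with limma, where 8.58% of all tested genes rose and 6.31% fell (14.9% in either direction). Among the 3826 tested genes at least as bright as the dimmest member, 8.29% rose and 13.2% fell. Only Igfbp3 changed more than 2-fold, a size at which 3.28% of tested genes were called as higher and 0.792% as lower. The median log2 fold change of the members was -0.15, against 0.0043 over all tested genes. Fold changes are on the scale of log2(intensity + 16).

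The promoters of the 4 called members are shown because these transcripts moved in different directions. All 10 members were found in the RefSeq promoter table, each window running from 250 bases before to 50 after an annotated start. Igf2 has 4 such windows and Igfbp2 has 2. The one printed is the most 3′ for Igf2 and the most 5′ for Igfbp2, and the arrays do not tell which start was used. Capitals mark matches on either strand to the GC box GGGCGG, the TATA box TATAAA, the CCAAT box CCAAT, the AP-1 motif TGANTCA or the FOXO motif GTAAACA.
Igf2 (GRCm38.p6, chr7:142657447-142657746, minus strand): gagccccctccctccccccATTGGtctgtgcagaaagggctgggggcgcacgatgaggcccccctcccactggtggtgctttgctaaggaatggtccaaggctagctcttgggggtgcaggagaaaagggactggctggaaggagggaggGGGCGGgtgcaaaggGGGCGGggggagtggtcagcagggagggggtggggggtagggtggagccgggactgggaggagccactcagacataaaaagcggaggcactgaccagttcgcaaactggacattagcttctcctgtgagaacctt
Igfbp2 (GRCm38.p6, chr1:72824230-72824529, plus strand): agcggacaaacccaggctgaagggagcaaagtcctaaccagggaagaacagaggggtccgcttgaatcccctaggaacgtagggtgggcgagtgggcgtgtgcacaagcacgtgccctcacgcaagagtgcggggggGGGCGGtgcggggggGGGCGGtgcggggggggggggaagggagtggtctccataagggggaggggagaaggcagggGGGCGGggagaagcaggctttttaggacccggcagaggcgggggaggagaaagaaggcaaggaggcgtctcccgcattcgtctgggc
Igfbp3 (GRCm38.p6, chr11:7213874-7214173, minus strand): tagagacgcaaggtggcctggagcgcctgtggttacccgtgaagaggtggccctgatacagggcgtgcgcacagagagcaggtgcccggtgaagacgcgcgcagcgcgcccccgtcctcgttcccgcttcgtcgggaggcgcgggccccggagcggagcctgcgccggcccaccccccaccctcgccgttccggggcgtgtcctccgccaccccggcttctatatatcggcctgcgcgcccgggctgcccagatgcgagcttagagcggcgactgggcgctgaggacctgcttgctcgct
Igfbp6 (GRCm38.p6, chr15:102143936-102144235, plus strand): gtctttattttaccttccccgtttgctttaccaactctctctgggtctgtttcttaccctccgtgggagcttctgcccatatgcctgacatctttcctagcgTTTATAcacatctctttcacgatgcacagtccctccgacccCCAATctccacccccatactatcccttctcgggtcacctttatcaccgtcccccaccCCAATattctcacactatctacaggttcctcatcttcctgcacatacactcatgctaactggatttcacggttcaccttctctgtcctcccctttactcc
GC boxes number 0, 0, 1 and 2 in the 4 Igf2 windows from 5′ to 3′, and 3 and 0 in the 2 Igfbp2 windows, so the printed window is the one with the most in each gene. The only windows of Igfbp3 and Igfbp6 hold 0. In the printed windows only the genes that fell thus have GC boxes, but other windows of Igf2 and Igfbp2 hold 0 as well. With 4 genes and the start in use unknown, no link of these counts to the direction of change was drawn. The uncalled members Igf1r, Igf2r and Igfbp7 have 2, 3 and 4 GC boxes, and 35.7% of all 32851 windows hold at least 1. The Igfbp6 window has 2 CCAAT boxes and 1 TATA box, found in 37.4% and 13.6% of all windows, and the Igf2 window has 1 CCAAT box. The Igfbp3 window holds none of the 5 motifs, at a GC content of 71.7% against a median of 52.7% over all windows, and that of Igfbp6 has 49.7%. AP-1 and FOXO letters stand in none of the printed windows and in 7.81% and 3.65% of all windows, while the second Igfbp2 window, not printed, has 1 AP-1 match. These matches describe the letters only and are not evidence of binding.

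A few facts of the series bear on the values below. The median intensity of an array was 56.0 to 89.6 in mutants and 44.1 to 89.0 in controls, and the number of arrays limits the precision. Pdgfc had an intensity of 22.8 to 29.3 in mutants and of 103 to 275 in controls, apart from control 2 at 5.88. Pdgfra averaged 1078 ± 352 in mutants (SD, n = 4) and 1764 ± 429 in controls (SD, n = 9). The mutants and controls 1, 5 and 8 had the transcript pattern of males, with Xist, the noncoding RNA of the inactive X chromosome, at 2.24 to 4.77 and at 4.78 to 8.73, while the other 6 controls had 536 to 1020. The 14 measured markers of meningeal fibroblasts had summed intensities of 28100 to 39400 in mutants and 24700 to 35800 in controls. All had a mean above the constant of 16. The measured markers of every other cell type listed did too, so this is no test of the tissue label. Neuronal markers differed between the groups, since 12 of 12 rose and their sum was 14000 to 17200 in mutants, against 1480 to 4190 in controls. By adjusted p 1710 genes rose and 1258 fell. That balance depends on the scaling, since 3638 rose and 855 fell when reference genes set the centre of each array. The counts were 1650 and 3680 when fibroblast genes did, 1808 and 2862 when the array median did, and 2668 and 3617 after quantile normalization.

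Among the ligands, Igf2 showed the change. Its intensity was 2662, 3102, 2439 and 3615 in mutants 1 to 4, against a lowest value of 4103, a median of 4947 and a highest value of 5815 in the 9 controls. The brightest mutant lay below the dimmest control, as in 3.04% of all tested genes (mutants lay wholly above or below the controls in 9.44%). The log2 fold change was -0.79 (standard error 0.13, adjusted p = 2.05e-04 with limma), or 1.73-fold lower. Its fall lost the call only with unequal variances (adjusted p = 0.0510) among 30 alternatives, whose values ranged from -0.91 to -0.61.

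Igf1, which mediates much of the action of growth hormone, had 283, 341, 266 and 387 in mutants and 247 to 456, with a median of 415, in controls. The groups overlapped, and the log2 fold change was -0.22 (95% interval -0.56 to 0.12, adjusted p = 0.547 with limma). A fall of the size seen for Igf2 lies outside this interval, but a smaller fall or a slight rise does not.

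Neither receptor passed the test. Igf1r, which transmits the signal of either ligand, had 435, 381, 337 and 547 in mutants and 364 to 591, with a median of 450.0, in controls. Its log2 fold change was -0.09 (95% interval -0.41 to 0.22, adjusted p = 0.899 with limma). Igf2r, the imprinted clearance receptor of IGF2 that also sorts lysosomal enzymes, had 342, 390, 322 and 508 in mutants and 414 to 577, with a median of 541, in controls. Mutants 1, 2 and 3 lay below every control, while mutant 4 lay within their range. The log2 fold change of Igf2r was -0.39 (95% interval -0.68 to -0.10), at an adjusted p of 0.0652 with limma. It was called as a fall in 10 of 30 alternatives, among them quantile normalization (adjusted p = 3.26e-04) and arrays centred on fibroblast genes (2.67e-04), but not with arrays centred on reference genes (0.173).

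**Figure D1:**
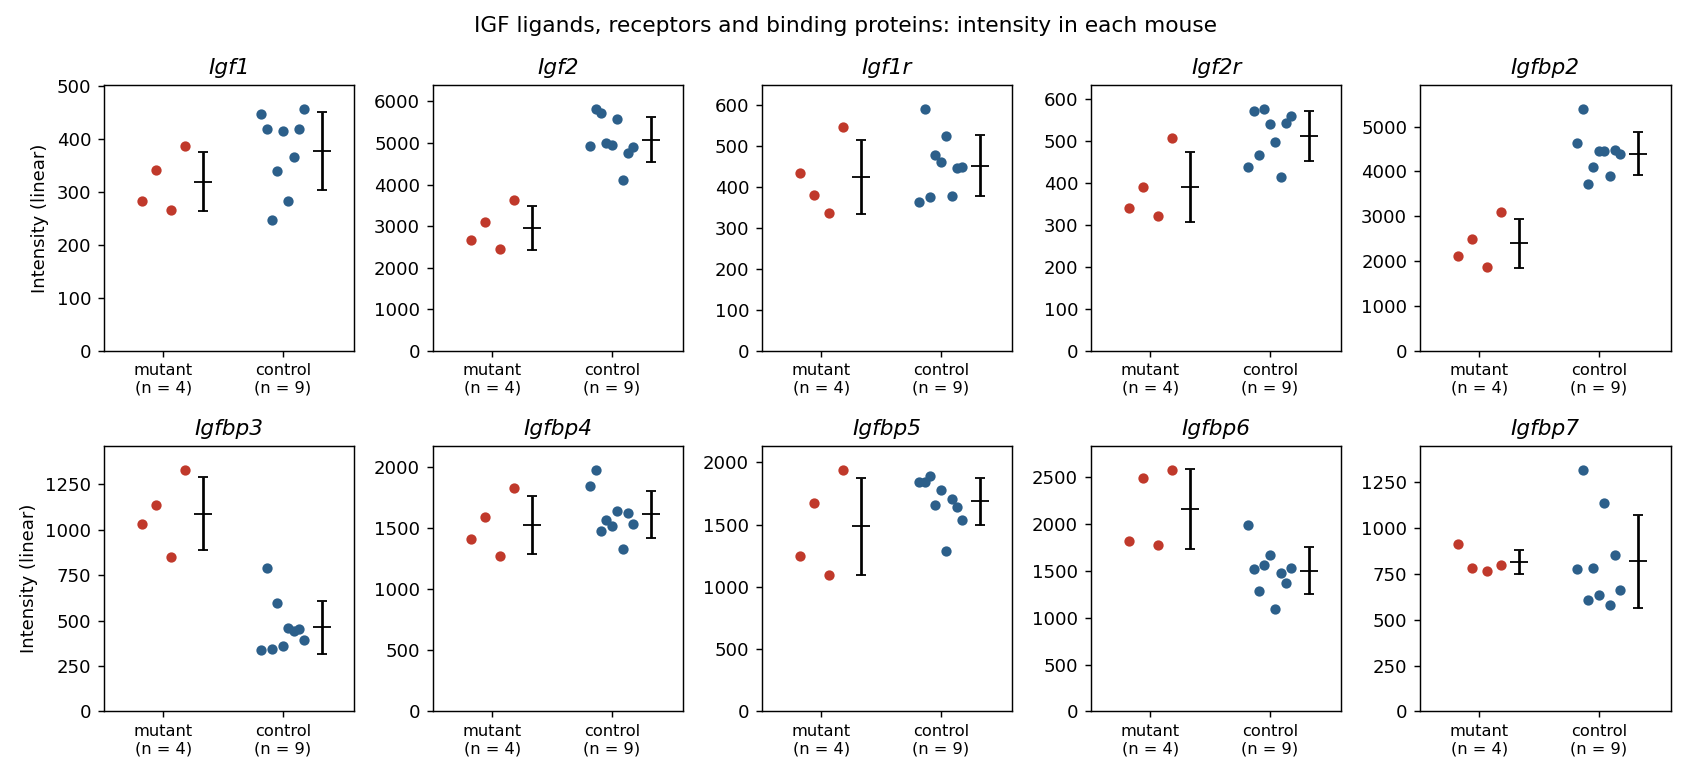
Intensity on a linear scale of the 10 members in each mouse, with 4 mutants at left and 9 controls at right of each panel; points are mice and bars the mean and SD. Mutants lie below all controls for Igf2 and Igfbp2 and above them for Igfbp3, and the groups overlap for the other 7 genes.

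The binding proteins went both ways. Igfbp2, a carrier that is abundant in cerebrospinal fluid, had 2104, 2502, 1863 and 3100.2 in mutants, against a lowest value of 3719, a median of 4457 and a highest value of 5389 in controls. Here too every mutant lay below every control, as in 3.04% of all tested genes. The log2 fold change was -0.89 (standard error 0.14, adjusted p = 9.69e-05 with limma), 1.85-fold lower, and it lost its call with unequal variances (0.0789).

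Igfbp3, the main carrier of IGFs in blood, changed the most. Its intensity was 1031, 1137, 849 and 1329 in mutants, against a lowest value of 336, a median of 440.4 and a highest value of 787 in controls. Every mutant lay above every control, as in 6.4% of all tested genes. The value of 787 belonged to control 2, the mouse with the lowest Pdgfc intensity, and the next control, control 4, was at 595. Control 2 was also the highest control for Igf2, Igfbp2, Igf1r, Igfbp4 and Igfbp7, but not for Igf1, Igf2r, Igfbp5 or Igfbp6. The log2 fold change of Igfbp3 was 1.23 (standard error 0.19, adjusted p = 9.42e-05 with limma), and all 30 alternatives called it, at values from 1.11 to 1.46.

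Igfbp6, a binding protein with a preference for IGF2, had 1815, 2481, 1768 and 2573 in mutants and 1096 to 1987, with a median of 1521, in controls. Mutants 2 and 4 lay above every control, and mutants 1 and 3 lay below control 1. The log2 fold change was 0.52 (standard error 0.15, adjusted p = 0.0250 with limma). The highest controls, at 1987 and 1664, were controls 1 and 5, which have the male pattern of the mutants, but control 8, which shares it, was at 1368, below the control median. With the Xist level as a covariate the log2 fold change was 0.34 and the call was lost (adjusted p = 0.434), as it was without mutant 2 or mutant 4 (0.108 each) and with unequal variances (0.170).

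The other binding proteins overlapped between the groups. Igfbp4, which the protease PAPP-A cleaves to release IGF, had 1275 to 1825 in mutants and 1331 to 1976 in controls (log2 fold change -0.08, 95% interval -0.36 to 0.19). Igfbp5, a binding protein of the extracellular matrix, had 1093 to 1940.5 in mutants and 1287 to 1887 in controls, at a log2 fold change of -0.21 (95% interval -0.52 to 0.11). Igfbp2 and Igfbp5 are adjacent genes of chromosome 1, and of this pair only Igfbp2 passed the test, which by itself does not show that they differ. The 95% interval of Igfbp2, -1.18 to -0.60, lay below that of Igfbp5, but the difference between these genes was not tested. Igfbp7, a low-affinity relative found around blood vessels, had 763 to 911 in mutants and 582 to 1316 in controls (log2 fold change 0.04, 95% interval -0.35 to 0.44). Its highest controls were control 2 at 1316 and control 6 at 1136, the controls with the largest sums of 12 endothelial markers (18200 and 16500.0). These controls also had the largest control sums of mural markers (5570 and 5470) and of erythroid, or red blood cell, markers (705 and 564). The part of these cell types in the values of Igfbp7 was not tested.

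Some of the spread within the mutants was shared by most members. Mutant 3 was the lowest and mutant 4 the highest of the mutants for 9 of 10 members, as for 27.3% of all tested genes. A ratio within an array removes a factor that acts on both genes equally, but not one that differs between genes. Igfbp3 over Igfbp2 was 0.429 to 0.490 in mutants and 0.0726 to 0.146 in controls, and Igfbp6 over Igfbp2 was 0.830 to 0.992 in mutants and 0.246 to 0.429 in controls. Both ratios combine a gene that was higher in mutants with one that was lower, so that they restate those differences. Igfbp2 over Igf2 overlapped, at 0.764 to 0.858 in mutants and 0.649 to 0.952 in controls. Igf2 over Igf2r was 7.12 to 7.95 in mutants and 8.65 to 12.3 in controls, without overlap. Since Igf2 alone did not overlap between the groups either, this ratio in part restates its fall. Since probe sets differ in brightness, these ratios compare mice and not the amounts of 2 transcripts.

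**Figure D2:**
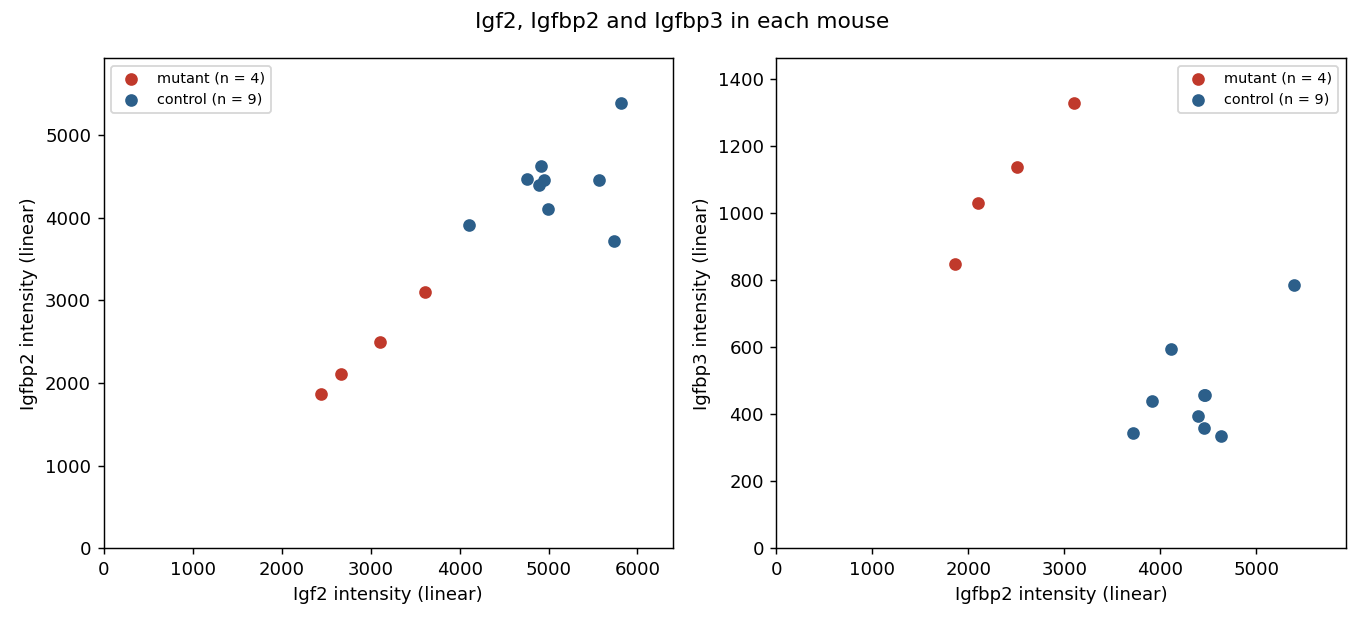
Linear intensity of Igfbp2 against Igf2 (left) and of Igfbp3 against Igfbp2 (right), with a point for each of 4 mutants and 9 controls. The mutants lie lower on both axes at left and form a separate group at right, at Igfbp3 intensities of 849 to 1329 and Igfbp2 intensities of 1863 to 3100.2.

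Markers of the cell types in the sheet moved alongside the members, and their part in the results was not tested. In bulk tissue fewer cells of a type and less RNA per cell cannot be told apart. Of 7 arachnoid genes, among them Ptgds and Crabp2, 4 fell and 0 rose, and their sum was 6520 to 11100 in mutants and 13500 to 15500 in controls. Of 14 fibroblast genes 3 rose and 0 fell, with a median of -0.01. They were the calcium-binding protein gene S100a6 (log2 fold change 1.73) and the collagen genes Col3a1 (0.53) and, named after its value was seen, Col1a1 (0.50). Of 8 choroid plexus genes 1 rose, Clic6, and 1 fell, Kl. Their sum was 3840 in mutant 1, where Ttr, named after its values were seen, reached 2840.5, and 989 to 1350 in the other mutants, against 850 to 1350 in controls. Of 12 endothelial genes 8 fell, among them Ramp2 and Kdr, with a sum of 6170 to 8170 in mutants and 8780 to 18200 in controls. Of 8 border macrophage genes 7 fell, among them Cbr2 and Folr2, with a sum of 1880 to 4000 in mutants and 6170 to 8670 in controls. Of 10 mural genes 0 were called by limma, and at an unadjusted p under 0.05 1 were higher and 1 lower. For astrocyte and radial glial genes 3 of 10 fell and 0 rose, while the median log2 fold change of the list was above 0, at 0.19. For microglial genes 5 of 9 fell and 1 rose, with a sum of 2080 to 3000.0 in mutants and 3220 to 4520 in controls. Of the dura and skull genes 1 of 5 fell. The arachnoid, endothelial, border macrophage and microglial sums were each lower in every mutant than in any control. No measured marker of these lists had a mean under 16.

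Of 46 measured genes that act around the family, 5 rose and 9 fell, where 8.58% of all tested genes rose and 6.31% fell, the median of their log2 fold changes being 0.05. Among 7 carriers and processing factors, Htra1, a secreted protease that can cleave binding proteins, fell (1 of 7, 0 rose). It had 239, 274, 254 and 306 in mutants, against 589 to 876 in controls, 2.79-fold lower (adjusted p = 5.61e-08 with limma). Pappa2 and Stc1, a protease of binding proteins and an inhibitor of such proteases, had log2 fold changes of 0.37 and 0.18, and neither was called (adjusted p = 0.478 and 0.615 with limma). The binding protein gene Igfbp1 is not among the members chosen here and was counted with these factors. It was not called (log2 fold change 0.11, adjusted p = 0.930 with limma).

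Of 12 genes of insulin and growth hormone signaling, which are receptors, adaptors and an insulin gene, 3 fell and 0 rose. Their median log2 fold change was 0.11. Grb10, an imprinted adaptor that restrains insulin and IGF receptors, had 925, 1239, 950.1 and 1219 in mutants, against 1333 to 1758 in controls. Every mutant lay below every control, as in 3.04% of all tested genes, and Grb10 was 1.5-fold lower (adjusted p = 0.00232 with limma). The growth hormone receptor gene Ghr was 1.6-fold lower (adjusted p = 0.00246), and the adaptor gene Shc1 1.44-fold lower (0.00722). With unequal variances Grb10, Ghr and Shc1 lost their call (adjusted p = 0.0853, 0.151 and 0.153). Sos1, which activates Ras downstream of Shc and Grb2, had a log2 fold change of 0.37 and was not called (0.106).

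Of 13 genes of the PI3K-AKT pathway 4 rose and 1 fell, with a median of 0.14. The risers were Pik3r1 and Pik3r2, which encode regulatory subunits of PI3K (1.53-fold and 1.47-fold higher), the AKT substrate gene Gsk3b (1.40-fold) and Tsc1, a brake on mTOR signaling (1.46-fold). Their mutant values lay above all those of controls, as in 6.4% of all tested genes, at 1050.3 to 1199 against 636 to 943 for Gsk3b. Foxo1, a transcription factor that AKT inactivates, fell and is named after its value was seen (log2 fold change -0.48, adjusted p = 0.0314 with limma). The rises of Pik3r2 and Tsc1 lost their call with the Xist level as a covariate (adjusted p = 0.102 and 0.150) and with unequal variances (0.0841 and 0.153). Tsc1 also lost its call without mutant 2 (0.0566) or mutant 4 (0.0570). All 12 neuronal markers rose as well, and their part in these rises was not tested.

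Of the genes whose products bind Igf2 mRNA, Igf2bp1 fell (log2 fold change -0.47, adjusted p = 0.0205 with limma), and Igf2bp3 had -0.27 (0.291). Igf2bp1 has 2 probe sets, and the brighter one gave this call. It was lost in 7 of 30 alternatives, among them without mutant 1, 2 or 3 (adjusted p = 0.0712, 0.0690 and 0.0521 with limma). With the mean of the probe sets the log2 fold change was -0.38 (adjusted p = 0.0699 with limma). The call was also lost on reference genes (0.151), with the Xist covariate (0.0770) and with the replicate block (0.157).

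Of 12 relatives that share the IGF-binding domain 1 rose and 3 fell. Igfbpl1, a relative expressed by young neurons, had 276, 224, 157 and 218 in mutants, against 14.0 to 90.7 in controls, 4.07-fold higher (adjusted p = 3.14e-06 with limma). Esm1, which encodes the endothelial proteoglycan endocan, had 18.96, 31.7, 21.4 and 44.0 in mutants, against 104 to 187 in controls, 3.48-fold lower (1.12e-07). Ccn2, the gene of connective tissue growth factor, was 2.42-fold lower and Ccn3 1.89-fold lower (adjusted p = 1.35e-05 and 2.88e-05). None of these 4 overlapped between the groups, as in 9.44% of all tested genes. The part of the neuronal markers that rose and of the endothelial markers that fell in these changes was not tested.

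**Figure D3:**
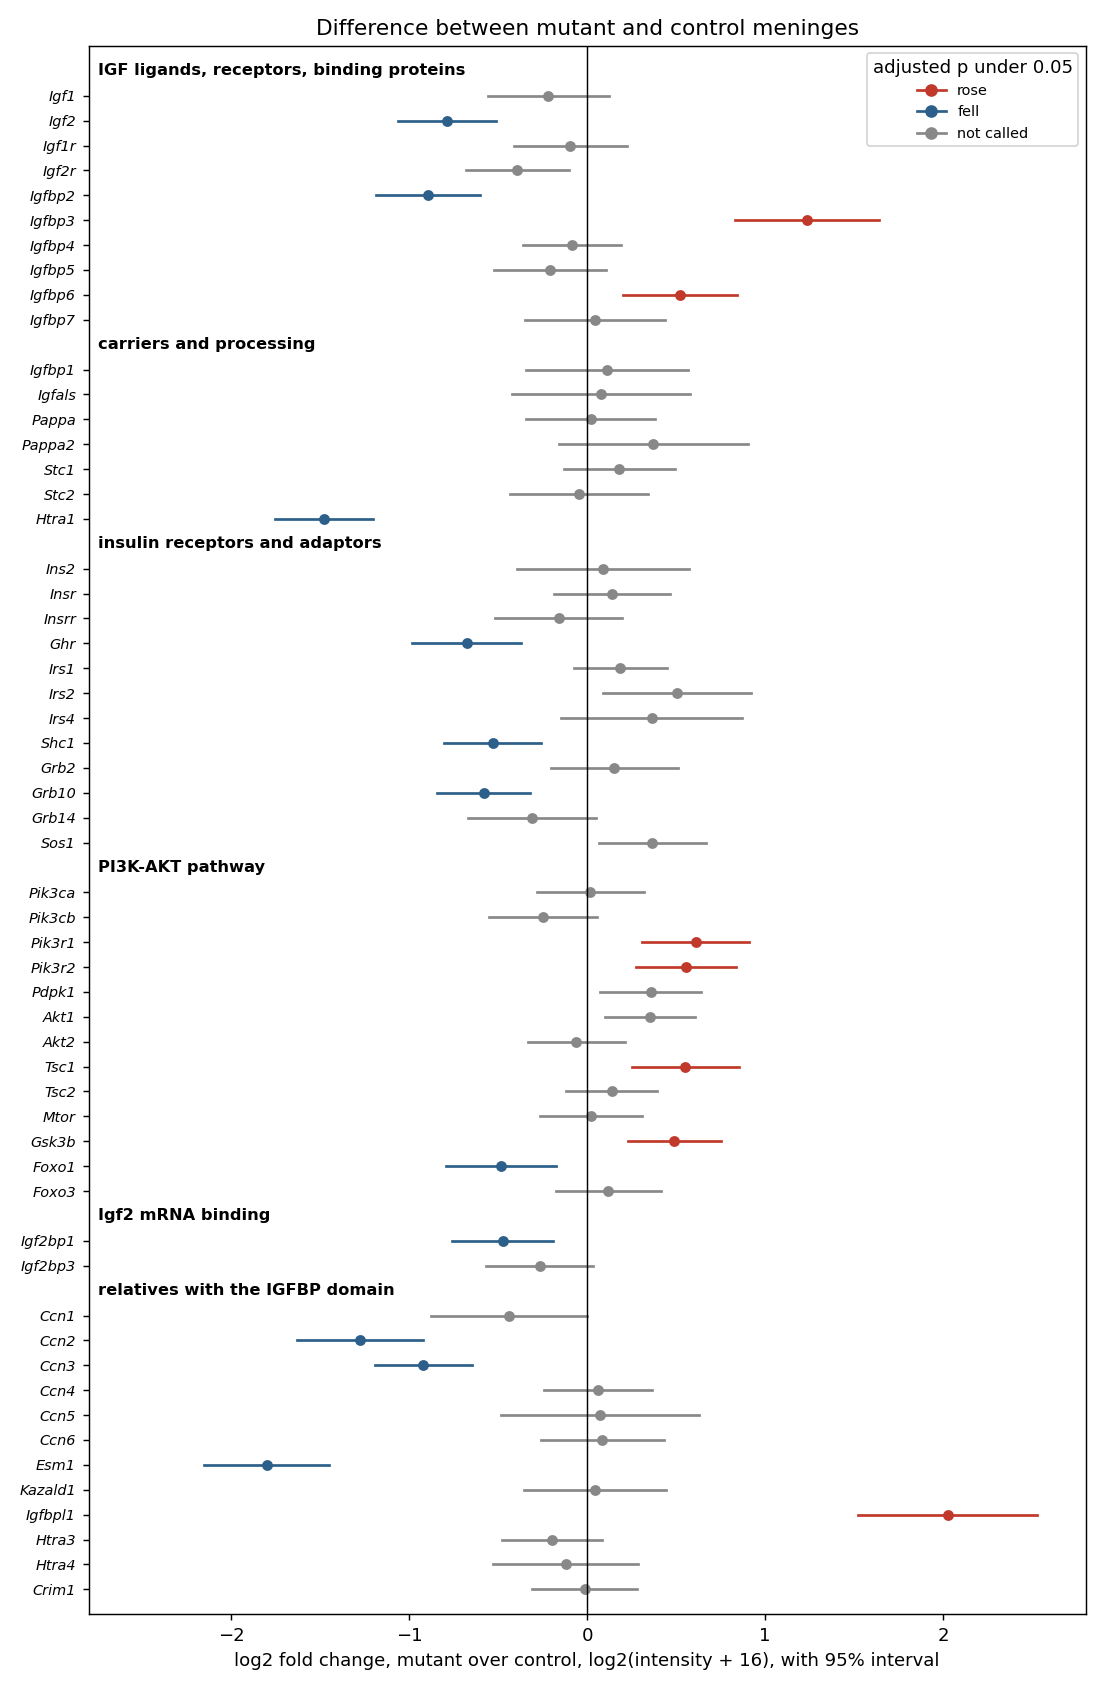
Log2 fold change of mutant over control for the 10 members and 46 genes around them, with 95% intervals from limma; colours mark genes that rose, fell or were not called at an adjusted p under 0.05. Igfbp3 and Igfbpl1 lie farthest right and Esm1, Htra1 and Ccn2 farthest left.

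The genes whose values followed each called member most closely over the 13 mice were listed after group means were removed and arrays centred on their median. For Igfbp3 they were Pde2a, P2ry14 and Fam13c (Pearson r = 0.91, 0.90 and 0.89), and for Igfbp6 Mfap5, Smim8 and Adamts15 (0.95, 0.93 and 0.92). For Igfbp2 they were Apoe, Col1a2 and Tmem214 (0.98, 0.97 and 0.97), and for Igf2 the mitochondrial COX2, Laptm4a and Itm2a (0.99, 0.98 and 0.98). Of these 12 genes 3 rose, 2 fell and 7 were not called, such as Smim8 (-0.04), Adamts15 (-0.01) and Col1a2 (0.04). P2ry14 rose by 1.39 on the log2 scale (adjusted p = 8.64e-06 with limma), as did Pde2a (0.84, adjusted p = 0.0105) and Mfap5 (0.78, 8.74e-04), while Apoe (-0.64, 0.00306) and Itm2a (-0.55, 0.00960) fell. These are descriptions only, since all genes of a mouse were read from the same array. Centring also takes the same term off every gene of an array. Genes that do not follow the array median can then correlate for that reason alone. Igf2 was at 5572 in control 6 and 4894 in control 9, whose array medians were 44.1 and 89.0. How much of each r came from the centring was not tested.

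**Figure D4:**
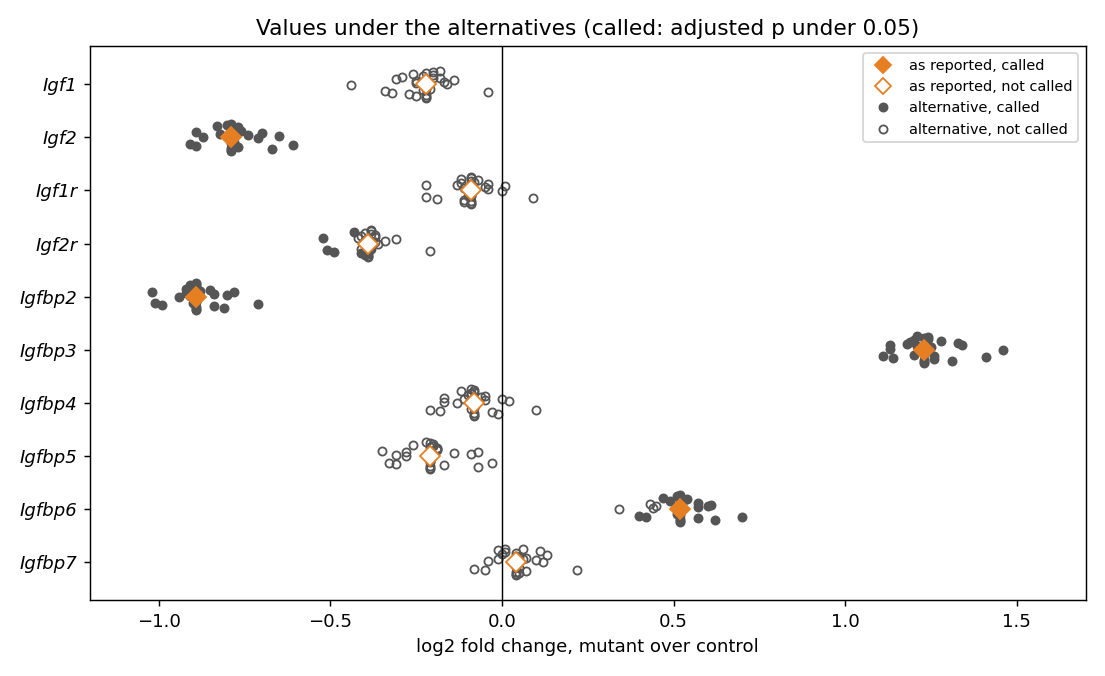
Log2 fold change of each member as reported (diamonds) and under 30 alternatives (circles), filled where the adjusted p was under 0.05. All values of Igfbp3 are filled and lie between 1.11 and 1.46, those of Igf2 and Igfbp2 stay below 0, and those of Igf1r, Igfbp4 and Igfbp7 lie on both sides of 0.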

How the data were processed

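Cerebral meninges of newborn pups were profiled on Affymetrix Mouse Gene 1.0 ST arrays. The authors summarised raw data with PLIER (version not given in the sources used here), and deposited them as linear intensities. Of 35557 probe sets 21789 carry 1 gene symbol in the platform table, 1621 several and 12147 none. A gene with several probe sets (999 of 19938) was represented by the brightest. Values were taken as log2(intensity + 16), so folds of dim genes are understated. Mutants and controls were compared in R 4.3.3 by limma 3.58.1 (functions lmFit and eBayes, two-sided test without covariates), and p-values were adjusted over all tested genes (Benjamini-Hochberg). The fit was tested on simulated data. Dixon's test was used for single mice. Arrays have no read depth. Plots were made in Python 3.11.15 (matplotlib 3.10.9).

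Named genes are the 10 members, up to 4 genes of each list around them and up to 2 of each marker list with the smallest adjusted p, and the 3 genes most correlated with each called member. Members and lists were chosen with earlier results of these data known. Some listed genes, among them Ins1, Rps6kb1, Igf2bp2 and H19, were not analysed here. Promoters came from RefSeq (GRCm38.p6). The labels name the arrays biological replicates. The alternatives comprised other tests, scalings, constants, filters, probe set rules, covariates and subsets of mice.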

Additional observations from a re-analysis of the deposited data

Results flagged for a closer look

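Among 46 groups of values, those of the 10 members and of 13 named genes around them in mutants and in controls, 2 had a mouse set apart from the rest by Dixon's test, which flags about 1 group in 20 by chance. Igf2bp1 was at 108.24 in mutant 4, against 84.6 to 88.1 in the other mutants. Ccn2 was at 673.37 in control 3, against 1100.5 to 1342 in the other controls. No member of the family itself was set apart in this way.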

How the results depend on the processing

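Each result was recomputed under 30 alternatives, 29 for Esm1 and Igfbpl1, which the filter on the dimmest 50% of genes left out. Of the members 2 rose and 2 fell as reported. With unequal variances 1 rose and 0 fell, against 2 that fell with limma. At an unadjusted p under 0.05 the test with unequal variances found 2 higher and 2 lower. With the Xist level as a covariate, and with the replicate block, 1 rose, since Igfbp6 lost its call. When each mouse was left out, 1 to 2 members rose and 2 to 3 fell. The replicate block changed the call of Igfbp6, Shc1, Pik3r1, Gsk3b, Tsc1 and Igf2bp1 among the named genes. The numbers 1 to 4 are common to both groups, but no mutant shares the number of controls 5 to 9. With the block these controls therefore add nothing to the difference between the groups. That fit in effect compares mutants 1 to 4 with controls 1 to 4 only, so a lost call there also goes with fewer mice. The deviations of mice with the same number correlated at -0.34, 0.16, 0.31 and -0.09. Mice with different numbers were not compared, so these values do not tell whether a number marks a pair. With the block Igfbp6 was at 0.44 (adjusted p = 0.206). The sign turned for 3 members that were not called. Igf1r was at 0.09 centred on reference genes, 0 with the Xist covariate, 0.01 without mutant 3 and -0.22 to 0.01 when 1 mouse was left out. Igfbp4 was at 0.10 on reference genes and 0.02 without the 4 arrays of lowest median. Igfbp7 was at -0.05 centred on the array median, -0.08 on fibroblast genes, -0.04 with the replicate block, and -0.01 to 0.13 when 1 mouse was left out. The cause was not tested. The median of all genes moved to 0.18 on reference genes, -0.12 on fibroblast genes and -0.11 with array weights.

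Of the genes around the family 5 rose and 9 fell as reported, and 2 to 12 rose and 5 to 15 fell under the alternatives. Of all tested genes 1710 rose and 1258 fell as reported. With unequal variances 1139 and 400 did, and the count of falls was 605 with the Xist covariate, 545 with the replicate block, 2023 with array weights, 778 without mutant 1 and 777 without mutant 3. The methods' t-test, at a fold over 2 and without adjustment, called 653 genes higher and 159 lower, with Igfbp3 the member among them. With 4 mutants, differences of the size of that of Igf2r lie near the threshold.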
